A study of Mus musculus with 4 samples.

Results

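De novo lipogenesis is described here through 8 genes, *Acly*, *Acaca*, *Acacb*, *Fasn*, *Me1*, *Srebf1*, *Mlxipl* and *Thrsp*, chosen by symbol from the 19030 genes listed for cold-exposed ingWAT, the inguinal white adipose tissue that lies under the skin. In this pathway ATP citrate lyase (*Acly*) splits cytosolic citrate into acetyl-CoA, the acetyl-CoA carboxylases (*Acaca*, *Acacb*) turn it into malonyl-CoA, and fatty acid synthase (*Fasn*) builds the acyl chain with NADPH, part of which comes from malic enzyme (*Me1*). SREBP1 (*Srebf1*), which acts downstream of insulin, and ChREBP (*Mlxipl*), which responds to glucose metabolites, are the main transcription factors of these enzymes. Spot 14 (*Thrsp*) is a small protein of lipogenic tissues. Adipose tissue under cold exposure is known for running fatty acid synthesis and fatty acid oxidation side by side.

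RNA was sequenced from ingWAT of C57BL/6 mice aged 3 months and housed at 4°C, with 2 libraries of Ctrl and 2 of cKO mice. The labels name the genotypes Control and Oct3 deficient. By the study's methods the mice were males, kept at a milder cold before 4°C, and the cKO genotype came from mice with *Oct3* alleles flanked by loxP sites and an Adiponectin-Cre transgene, which is active in adipocytes, so that other cell types of the depot are not targeted. Ctrl mice were *Oct3* fl/fl littermates and thus carried the loxP sites as well. The number of mice behind a library is not stated, and p-values therefore measure the spread between libraries, which may be technical. Expression was given by the authors as FPKM, the fragments of a gene scaled by transcript length and by mapped reads, so that levels can be compared between genes.

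*Slc22a3*, which encodes Oct3, had FPKM of 16.95 and 17.68 in the Ctrl and 9.07 and 9.50 in the cKO libraries (log2 fold change -0.83, adjusted p = 0.000439 by limma). Depth, estimated from the steps between low values, was 17400000 to 18150000 reads per library. White adipocyte markers were abundant in every library, with a summed FPKM of 19127.9 to 23766.3 over 10 genes, and 6 of them were lower in cKO. All 8 brown and beige adipocyte markers were higher in cKO (sums of 1518.1 and 1798.9 in Ctrl, 4738.2 and 4008.8 in cKO). Skeletal muscle markers summed to 2830.6 and 1928.9 in Ctrl but to 49.8 and 48.8 in cKO, all 12 tested of 15 were lower, and none was at 0. Of 10 leukocyte markers 7 were higher and 1 lower (321.0 and 331.3 against 442.6 and 482.3), and 5 of 8 endothelial and fibroblast markers were lower (1757.0 and 1567.7 against 1004.4 and 1051.2). The leukocyte markers thus did not all move alike. For all these marker counts the background was 12.0% of genes tested higher and 13.8% lower. Epithelial markers were near the floor, with sums of 1.99 to 3.01 over the 9 of 12 listed and *Krt5*, *Krt8* and *Csn2* at 0 in 3 libraries each. In bulk tissue, fewer cells of a type and less RNA per cell cannot be told apart. The part of these shifts in the values of the 8 genes was not tested.

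All 8 genes matched the RefSeq promoter table of GRCm38.p6, the assembly also named mm10, with 12 windows of 300 bases, from 250 bases before to 50 after a transcript start. Searched on both strands were the CCAAT box (CCAAT, bound by NF-Y, a partner of SREBP), the GC box (GGGCGG, bound by Sp1), the E-box (CACGTG, bound by USF) and the letters of a sterol regulatory element (TCACNCCAC). None of these 4 strings contains another, and they were present in 37.4%, 35.7%, 7.15% and 1.24% of 32851 promoter windows. CCAAT was found in 8 of the 12 windows, which belong to 7 of the 8 genes. The E-box and the sterol element letters were in 1 window each, both of *Mlxipl*. The GC box was found in windows of *Acly*, *Me1*, *Srebf1* and *Mlxipl*. For *Srebf1* and *Mlxipl*, CCAAT lay only in windows without the start of a transcript that the deposited table lists, as did the E-box. The background shares are per window, so the count of genes has no share beside it. Shown are the windows of the genes that differed most between genotypes, *Acacb*, *Srebf1* and *Mlxipl*, with that of *Fasn*, the classic SREBP1 target, for comparison. Each is written 5′ to 3′ on the gene's strand with matched letters in capitals, and each holds the start of a transcript that the deposited table lists.
*Acacb* (chr5:114165268-114165567, + strand): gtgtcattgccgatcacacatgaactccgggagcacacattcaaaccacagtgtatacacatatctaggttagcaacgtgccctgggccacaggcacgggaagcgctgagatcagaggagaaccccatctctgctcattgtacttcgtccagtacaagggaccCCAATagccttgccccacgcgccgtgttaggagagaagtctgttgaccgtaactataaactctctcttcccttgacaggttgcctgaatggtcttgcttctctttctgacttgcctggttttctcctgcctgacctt
*Srebf1* (chr11:60220578-60220877, − strand): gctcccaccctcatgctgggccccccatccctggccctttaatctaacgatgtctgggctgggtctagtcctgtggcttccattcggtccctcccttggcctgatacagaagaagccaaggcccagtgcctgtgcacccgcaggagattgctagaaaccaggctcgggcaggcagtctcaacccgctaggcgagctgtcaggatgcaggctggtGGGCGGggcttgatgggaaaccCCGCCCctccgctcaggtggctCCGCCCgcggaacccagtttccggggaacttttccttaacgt
*Mlxipl* (chr5:135106641-135106940, + strand): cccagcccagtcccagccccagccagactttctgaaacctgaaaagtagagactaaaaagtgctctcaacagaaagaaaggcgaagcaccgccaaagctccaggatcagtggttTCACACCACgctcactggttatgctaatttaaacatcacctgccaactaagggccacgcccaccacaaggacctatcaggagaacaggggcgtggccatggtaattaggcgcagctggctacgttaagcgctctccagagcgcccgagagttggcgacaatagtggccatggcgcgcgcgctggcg
*Fasn* (chr11:120824498-120824797, − strand): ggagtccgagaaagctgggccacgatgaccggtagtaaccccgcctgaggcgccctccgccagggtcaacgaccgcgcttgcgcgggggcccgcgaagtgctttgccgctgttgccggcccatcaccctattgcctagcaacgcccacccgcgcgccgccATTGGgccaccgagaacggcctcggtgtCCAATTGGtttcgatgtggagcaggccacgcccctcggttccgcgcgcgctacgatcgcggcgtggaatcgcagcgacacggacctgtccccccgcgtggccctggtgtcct
The *Acacb* window holds a single CCAAT box and the *Fasn* window 3, of which 2 overlap. The *Srebf1* window has 3 GC boxes and no match to the other motifs, whereas the *Mlxipl* window has the sterol element letters alone. *Srebf1* has 3 windows and *Mlxipl* and *Me1* 2 each in the table, and both windows of *Me1* hold the start of a listed transcript. The deposited table gives 1 FPKM per gene, so isoforms with different starts could not be separated for any of the 8 genes. A match is a description of letters and not of binding.

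The 8 genes differed over a wide range of level but mostly little between genotypes. Their order by mean FPKM over the 4 libraries was *Thrsp*, *Fasn*, *Acly*, *Me1*, *Acaca*, *Acacb*, *Srebf1* and *Mlxipl*. *Thrsp* ranked 5 and *Fasn* 15 among the 12658 genes whose mean FPKM reached 1, and *Mlxipl*, the lowest of the 8, ranked 1148. In Ctrl the ranges of the libraries overlapped for 1 pair of neighbours in this order, *Acacb* with *Srebf1*, and both Ctrl libraries had *Me1* above *Acly*. In cKO no neighbours overlapped. *Srebf1* was above *Acacb* in Ctrl replicate 1 and below it in the other 3 libraries. The summed FPKM of the 8 genes was 7811.3 and 7854.3 in Ctrl and 7792.2 and 7323.3 in cKO, which made up 1.60%, 1.62%, 1.57% and 1.47% of all FPKM.

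**Figure D1:**
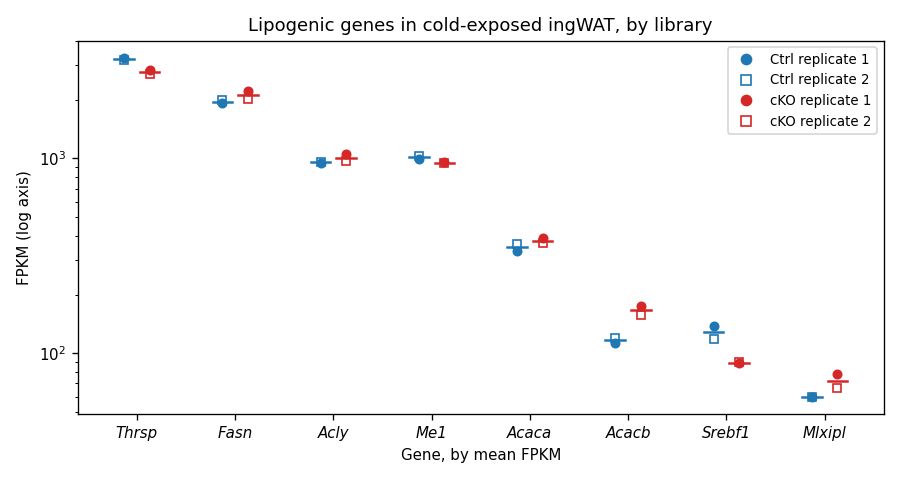
FPKM (log axis) of the 8 lipogenic genes in each library of cold-exposed ingWAT, ordered by mean level; filled circles are replicate 1, open squares replicate 2 and bars the mean of the 2 libraries of a genotype. *Acacb* lies higher in cKO (157.57 and 175.22 against 113.39 and 120.44) and *Srebf1* lower (88.80 and 89.92 against 118.39 and 137.80), while *Thrsp*, *Fasn*, *Acly* and *Me1* stay at 947.14 FPKM or above in all libraries.

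To ask which of the 8 genes differed between genotypes, limma was run on log2(FPKM + 1) over the 12658 genes, with Benjamini-Hochberg adjusted p-values and a threshold of 0.05. Of the 8 genes, 1 was higher (*Acacb*), 1 was lower (*Srebf1*) and 6 did not pass, where 12.0% of all genes tested were higher, 13.8% were lower and 25.8% passed in either direction. The share among the 8 genes was thus near the background. Their median log2 fold change was 0.10, which became -0.07 under quantile normalization, and that of all genes tested was -0.006. Both cKO libraries lay above both Ctrl libraries in 5 of the 8 genes and below them in 3, against 31.9% and 34.6% of all genes tested, or 66.5% in either direction. Without Ctrl replicate 1 *Acacb* no longer passed, and without cKO replicate 2 *Mlxipl* passed as well, so that 0 to 2 of the 8 genes were higher when single libraries were left out. At the estimated depth each value rests on 3900 to 384700 reads, with a counting error of at most 1.61%.

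**Figure D2:**
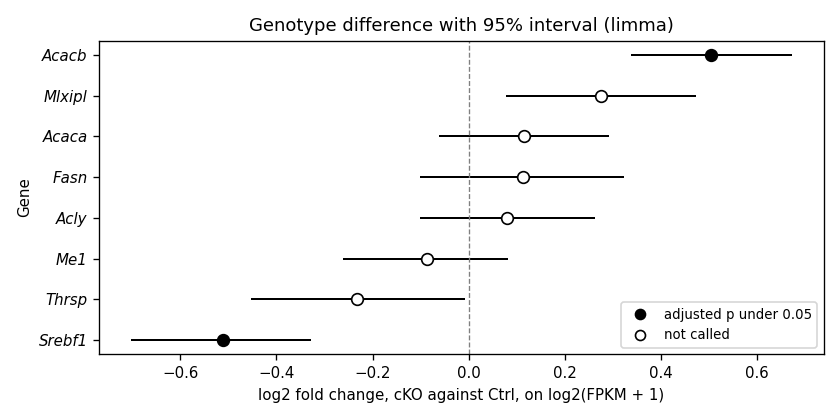
Difference between genotypes for each of the 8 genes, as log2 fold change of cKO against Ctrl on log2(FPKM + 1) with 95% intervals from limma; filled points have an adjusted p under 0.05. *Acacb* (0.50) and *Srebf1* (-0.51) pass in opposite directions, *Mlxipl* (0.27) has an adjusted p of 0.0508, and the intervals of *Acaca*, *Fasn*, *Acly* and *Me1* include 0, with the estimates of *Acaca*, *Fasn* and *Acly* below 0 under quantile normalization.

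The carboxylases catalyse the same reaction at different sites. ACC1, the product of *Acaca*, is cytosolic and feeds fatty acid synthase, whereas ACC2, the product of *Acacb*, lies at the outer mitochondrial membrane, where its malonyl-CoA inhibits carnitine palmitoyltransferase 1 and with it the entry of fatty acids for oxidation. *Acacb* (Entrez gene 100705, chr5:114146321-114250761) had FPKM of 113.39 and 120.44 in Ctrl and of 175.22 and 157.57 in cKO ingWAT. Both cKO libraries lay above both Ctrl libraries. The mean rose from 116.9 ± 4.99 to 166.4 ± 12.5 (SD, n = 2), by 42.3%, with a log2 fold change of 0.50 (95% interval 0.34 to 0.67, limma, adjusted p = 0.00297). *Acacb* passed in 10 of the 11 alternatives and missed in 1, the fit without Ctrl replicate 1, in which its log2 fold change was 0.46 (limma, adjusted p = 0.061).

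*Acaca* (Entrez gene 107476, chr11:84129635-84401651) had FPKM of 334.03 and 365.82 in Ctrl and of 390.77 and 366.44 in cKO. Ctrl replicate 2 and cKO replicate 2 thus differed by less than 1 FPKM. The log2 fold change was 0.11 (95% interval -0.06 to 0.29, limma, adjusted p = 0.294) and turned to -0.00454 under quantile normalization. *Acacb* was therefore the less abundant of the isozymes in each library, but its share of their summed FPKM was 25.3% and 24.8% in Ctrl and 31.0% and 30.1% in cKO. On the log2(FPKM + 1) scale the difference between *Acacb* and *Acaca* was -1.57 ± 0.0315 for Ctrl libraries and -1.18 ± 0.0423 for cKO libraries (SD, n = 2). The shift of 0.39 was larger than the spread between libraries, while the exact two-sided permutation test gave p = 0.333, the smallest value that 2 against 2 libraries allow. With single libraries left out the shift was 0.36 to 0.42.

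Malonyl-CoA decarboxylase (*Mlycd*), which turns malonyl-CoA back into acetyl-CoA, rose with *Acacb*. It had FPKM of 37.67 and 39.45 in Ctrl and of 60.32 and 55.68 in cKO, a log2 fold change of 0.58 (limma, adjusted p = 0.00131), and it kept an adjusted p under 0.05 with any single library left out. The ratio of *Mlycd* to *Acacb* FPKM was 0.332 and 0.328 in Ctrl and 0.344 and 0.353 in cKO, and this difference was not tested. *Acacb* is also known from oxidative tissues such as muscle and brown fat. The skeletal muscle markers summed to 2830.6 and 1928.9 FPKM in Ctrl and to 49.8 and 48.8 in cKO. The brown and beige markers summed to 1518.1 and 1798.9 in Ctrl and to 4738.2 and 4008.8 in cKO. The part of either tissue in the *Acacb* values was not tested.

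**Figure D3:**
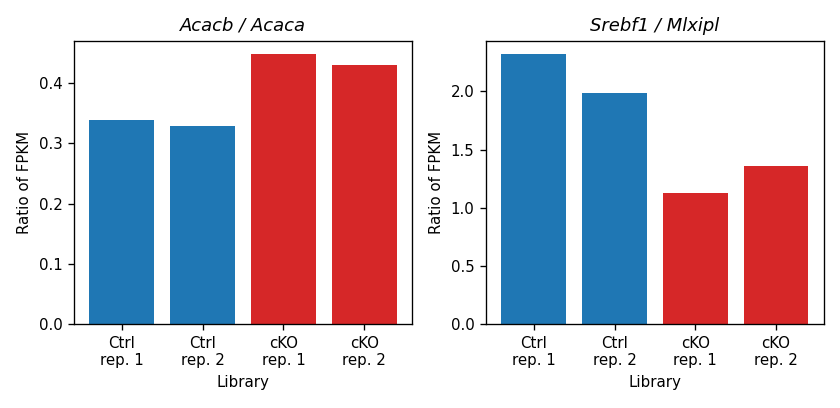
Ratios of FPKM in each library, for the carboxylase genes (*Acacb* to *Acaca*, left) and the transcription factor genes (*Srebf1* to *Mlxipl*, right); each bar is 1 library and the axes start at 0. The carboxylase ratio is 0.339 and 0.329 in Ctrl and 0.448 and 0.430 in cKO, and the transcription factor ratio 2.32 and 1.99 in Ctrl and 1.13 and 1.36 in cKO.

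The other enzymes of the pathway showed no difference that passed the test. *Fasn* (Entrez gene 14104, chr11:120805958-120825166) had FPKM of 1930.31 and 1983.53 in Ctrl and of 2208.08 and 2025.52 in cKO. Its log2 fold change was 0.11 (95% interval -0.10 to 0.32, limma, adjusted p = 0.399), and it was -0.12 under quantile normalization. *Fasn* exceeded *Acaca* 5.78 and 5.42 times in the Ctrl and 5.65 and 5.53 times in the cKO libraries, ranges that overlap. *Acly* (Entrez gene 104112, chr11:100476352-100528000) had FPKM of 947.14 and 963.48 in Ctrl and of 1055.94 and 966.03 in cKO. The higher value in cKO replicate 1 carried the difference, since cKO replicate 2 exceeded Ctrl replicate 2 by less than 3 FPKM. The log2 fold change of *Acly* was 0.08 (95% interval -0.10 to 0.26, limma, adjusted p = 0.493) and was -0.02 under quantile normalization. For *Fasn*, *Acly* and *Acaca* these intervals leave room for a rise or a fall, and a difference of the size found for *Acacb* lies above all 3 of them.

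*Me1* (Entrez gene 17436, chr9:86581363-86695914), which makes NADPH while turning cytosolic malate into pyruvate, had FPKM of 995.84 and 1029.23 in Ctrl and of 958.16 and 948.33 in cKO. Its log2 fold change was -0.09 (95% interval -0.26 to 0.08, limma, adjusted p = 0.414). The mitochondrial malic enzymes were far less abundant and did not move alike. *Me3*, the mitochondrial NADP-dependent form, had FPKM of 0.81 and 1.59 in Ctrl and of 5.29 and 4.02 in cKO, a log2 fold change of 1.38 (95% interval 0.93 to 1.82, limma, adjusted p = 0.00268). *Me2*, the mitochondrial form that prefers NAD, had values from 11.69 to 14.86 in cKO on both sides of the Ctrl values of 13.13 and 12.97 (log2 fold change 0.01, 95% interval -0.24 to 0.26), and its log2 fold change was -0.15 without cKO replicate 2 and 0.17 without cKO replicate 1.

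Of the regulators, *Srebf1* fell. *Srebf1* (Entrez gene 20787, chr11:60199084-60224186) had FPKM of 137.80 and 118.39 in Ctrl and of 88.80 and 89.92 in cKO, and the cKO libraries lay below both Ctrl libraries and close to each other. The mean went from 128.1 ± 13.7 to 89.4 ± 0.792 (SD, n = 2), and the log2 fold change was -0.51 (95% interval -0.70 to -0.33, limma, adjusted p = 0.00422). *Srebf1* passed in all 11 alternatives, with log2 fold changes from -0.62 to -0.40 and adjusted p-values from 0.000691 to 0.0476. *Fasn*, *Acly* and *Acaca*, all classic SREBP1 targets, did not pass the test, and their difference from *Srebf1* was not tested. These genes do not stand for all SREBP1 targets. Of 10 other known targets of SREBP1 or ChREBP tested, 2 were lower, among them *Pnpla3* (log2 fold change -0.42), and 1 was higher, *Gpd1* (0.88). Whether SREBP1 targets followed *Srebf1* was not tested. White adipocyte markers moved with it, since 6 of 10 were lower in cKO, and their part was not tested.

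*Mlxipl* (Entrez gene 58805, chr5:135089890-135139768) had FPKM of 59.47 and 59.52 in Ctrl and of 78.66 and 66.24 in cKO. Both cKO libraries were above the Ctrl libraries, but cKO replicate 1 stood well above cKO replicate 2. The log2 fold change was 0.27 (95% interval 0.08 to 0.47, limma, adjusted p = 0.0508), just outside the threshold. It passed in 3 of the 11 alternatives, among them a minimum mean FPKM of 5 and the fit without cKO replicate 2 (log2 fold change 0.40), and its adjusted p ranged from 0.017 to 0.232. The ratio of *Srebf1* to *Mlxipl* FPKM, a ratio chosen after the values were seen, was 2.32 and 1.99 in Ctrl and 1.13 and 1.36 in cKO. Both cKO libraries were below Ctrl in *Srebf1* and above it in *Mlxipl*, so this ratio could not overlap between genotypes.

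*Thrsp* (Entrez gene 21835, chr7:97412933-97417550) had the highest level of the 8 genes, with FPKM of 3293.32 and 3213.87 in Ctrl and of 2836.53 and 2703.29 in cKO. The means were 3253.6 ± 56.2 and 2769.9 ± 94.2 (SD, n = 2), and neither cKO library reached a Ctrl library. The log2 fold change was -0.23 (95% interval -0.45 to -0.01, limma, adjusted p = 0.11), which did not pass. Under quantile normalization it was -0.46 with an adjusted p of 0.00458 by limma, the only one of the 11 alternatives in which *Thrsp* passed. The paralog *Mid1ip1*, whose product binds acetyl-CoA carboxylase and promotes its polymerization, fell from 98.44 and 85.82 in Ctrl to 64.96 and 57.15 in cKO (log2 fold change -0.59, limma, adjusted p = 0.00392). Without Ctrl replicate 1 *Mid1ip1* had an adjusted p of 0.0607 by limma. *Thrsp* exceeded *Mid1ip1* 33.5 and 37.4 times in Ctrl and 43.7 and 47.3 times in cKO, a difference that was not tested.

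Around the 8 genes, 6 lists of pathway genes were compared in the same fit. Their counts are set beside the background of 12.0% of genes higher and 13.8% lower, with no test of a list as a whole.

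**Figure D4:**
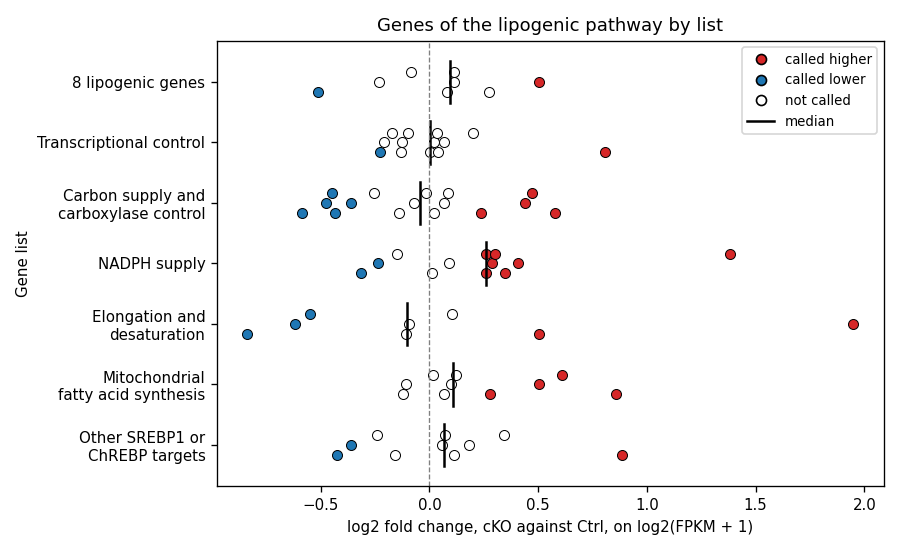
Log2 fold change of cKO against Ctrl on log2(FPKM + 1) for each tested gene of the 8 lipogenic genes and of 6 pathway lists; filled points passed the test, open points did not, and vertical bars are medians. The NADPH list has 7 of 12 genes higher and a median of 0.26, and the medians of the other lists lie between -0.10 and 0.11, that of the 8 lipogenic genes (0.10) being -0.07 under quantile normalization.

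The first list holds further genes of transcriptional control. Of 13 tested partners, processing factors and coactivators, 1 was higher, 1 was lower and 11 did not pass, with a median log2 fold change of 0.00. *Ppargc1b*, which encodes the coactivator PGC-1β, rose from 3.57 and 4.20 to 7.89 and 7.21 FPKM (log2 fold change 0.81, limma, adjusted p = 0.00156). *Nr1h3*, the liver X receptor that activates *Srebf1*, fell from 53.98 and 53.94 to 46.64 and 45.21 FPKM (log2 fold change -0.23, limma, adjusted p = 0.0218), a call lost with any single library left out (adjusted p from 0.0557 to 0.128 by limma). The genes that follow were named after their values were seen. *Srebf2*, the paralog of *Srebf1* that governs cholesterol synthesis, was at 19.42 and 19.23 in Ctrl and at 19.85 and 20.76 in cKO (log2 fold change 0.07, 95% interval -0.07 to 0.21). *Insig1*, which retains SREBPs in the endoplasmic reticulum and is itself an SREBP target, had a log2 fold change of -0.17 (95% interval -0.32 to -0.03, limma, adjusted p = 0.0851). *Mlx*, the obligate partner of ChREBP, had one of 0.20 (95% interval 0.04 to 0.36, limma, adjusted p = 0.0713).

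Carbon supply and carboxylase control split in both directions. Of 16 genes tested of 18, 4 rose and 5 fell, and the median log2 fold change was -0.04. Besides *Mlycd* and *Mid1ip1*, the largest changes were those of the regulatory β subunits of AMP-activated protein kinase, which phosphorylates and inhibits both carboxylases. *Prkab1* rose from 19.49 and 17.41 to 27.42 and 24.51 FPKM (log2 fold change 0.47, limma, adjusted p = 0.00658), and *Prkab2* fell from 5.34 and 5.38 to 3.60 and 3.55 (log2 fold change -0.48, limma, adjusted p = 0.00607). Skeletal muscle markers were lower in cKO as well, and the part of muscle in the values of these subunits was not tested. Acetyl-CoA synthetase (*Acss2*), which makes cytosolic acetyl-CoA from acetate, fell from 334.26 and 325.84 to 258.83 and 254.46 FPKM (log2 fold change -0.36, limma, adjusted p = 0.00512). *Acly* exceeded *Acss2* 2.83 and 2.96 times in Ctrl and 4.08 and 3.80 times in cKO, a difference that was not tested. Both cKO libraries were above Ctrl in *Acly* and below it in *Acss2*, so this ratio could not overlap between genotypes. The log2 fold change of *Acly* itself was 0.08 and did not pass. Named after their values were seen, citrate synthase (*Cs*) and malate dehydrogenase (*Mdh1*) were higher (log2 fold changes 0.44 and 0.24), pyruvate carboxylase (*Pcx*) and acetoacetyl-CoA synthetase (*Aacs*) were lower (-0.45 and -0.43), and the citrate carrier *Slc25a1* did not pass (-0.01, 95% interval -0.19 to 0.16). The counts depended on the Ctrl libraries, with 2 higher and 0 lower without Ctrl replicate 1 and 2 higher and 3 lower without Ctrl replicate 2. *Acss2* lost the call without either of them (limma, adjusted p = 0.0804 and 0.051), as did *Prkab2* (limma, adjusted p = 0.0786 and 0.0642), and *Prkab1* without Ctrl replicate 2 (limma, adjusted p = 0.066). *Prkag3*, a skeletal muscle subunit of the kinase that was also named after its values were seen, was below the level required for a test, at 1.17 and 0.75 FPKM in Ctrl and 0.10 and 0.08 in cKO.

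The list of NADPH supply outside *Me1* had more genes higher than lower. It also holds pentose phosphate enzymes that make no NADPH themselves, such as transaldolase (*Taldo1*), and mitochondrial enzymes. Its count is therefore not a count of cytosolic NADPH sources. Of 12 genes, 7 were higher, 2 were lower and 3 did not pass, with a median log2 fold change of 0.26. After *Me3*, the largest were the pentose phosphate enzymes transaldolase and 6-phosphogluconate dehydrogenase. *Taldo1* rose from 528.64 and 557.31 to 762.36 and 679.91 FPKM (log2 fold change 0.41, limma, adjusted p = 0.0107) and *Pgd* from 312.11 and 321.46 to 425.60 and 383.21 (0.35, limma, adjusted p = 0.0127). *Rpe*, the ribulose phosphate epimerase, fell from 31.56 and 32.82 to 25.41 and 25.99 FPKM (log2 fold change -0.31, limma, adjusted p = 0.00822). *G6pdx*, which encodes the first enzyme of that route, rose from 145.86 and 158.14 to 193.17 and 178.17 FPKM (0.29, limma, adjusted p = 0.0233). Cytosolic *Idh1* was lower (-0.24) and mitochondrial *Idh2* higher (0.26), and these isozymes and *G6pdx* were named after their values were seen. Leaving out Ctrl replicate 1 or Ctrl replicate 2 left 1 gene higher and 0 lower, and leaving out cKO replicate 1 left 3 higher and 1 lower. *Taldo1*, *Pgd* and *Rpe* each lost the call without Ctrl replicate 1 and without Ctrl replicate 2, with adjusted p-values of 0.0645 to 0.154 by limma.

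The list of elongases and desaturases included the largest rise and the largest fall in log2 fold change among the tested genes of the 6 lists. Of 8 genes tested of 11, 2 rose and 3 fell, and the median log2 fold change was -0.10. *Elovl3*, an elongase of very long chains known from brown fat under cold, rose from 40.28 and 52.61 to 198.17 and 164.45 FPKM (log2 fold change 1.95, limma, adjusted p = 0.000299). The brown and beige markers rose with it, and their part was not tested. The front-end desaturases of polyunsaturated fatty acids fell, *Fads1* from 46.91 and 43.68 to 23.64 and 26.21 FPKM (-0.84, limma, adjusted p = 0.000561) and *Fads2* from 16.92 and 14.72 to 10.54 and 10.41 (-0.55, limma, adjusted p = 0.00336). *Scd2*, a stearoyl-CoA desaturase, fell from 234.46 and 221.45 to 151.28 and 145.45 FPKM (-0.62, limma, adjusted p = 0.000868). Named after its values were seen, *Scd1*, the most abundant gene of the pathway lists, ranged from 11579.56 to 12518.39 in Ctrl and from 10715.64 to 11668.50 in cKO, with overlap (-0.11, 95% interval -0.43 to 0.22). *Elovl6*, which extends palmitate to stearate and was likewise named afterwards, was higher, at 196.64 and 228.96 in Ctrl and 315.12 and 289.02 in cKO (0.51, limma, adjusted p = 0.00657). *Elovl6* lost this call without Ctrl replicate 1 and when genes with a mean FPKM under 1 were kept. Without Ctrl replicate 1, 1 gene of this list was higher and 2 were lower, and *Fads2* had an adjusted p of 0.0541 by limma.

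Mitochondria hold a separate fatty acid synthesis route, whose product is the precursor of lipoic acid. Of 10 genes tested of 11, 4 were higher and 0 lower by limma (0 lower also at an unadjusted p under 0.05), 6 did not pass, and the median log2 fold change was 0.11. *Acsf3*, the malonyl-CoA synthetase of this route, rose from 32.79 and 37.15 to 69.73 and 58.79 FPKM (log2 fold change 0.86, limma, adjusted p = 0.00133). *Mecr*, its enoyl reductase, rose from 67.21 and 69.95 to 104.97 and 105.06 (0.61, limma, adjusted p = 0.000671). *Ndufab1*, its acyl carrier protein and also a subunit of complex I, rose from 186.57 and 202.70 to 283.36 and 269.05 (0.50, limma, adjusted p = 0.00243). *Cbr4*, a ketoacyl reductase subunit, was higher at 25.19 and 29.04 against 34.41 and 31.74 (0.28, limma, adjusted p = 0.0446), a call lost with any single library left out. Without Ctrl replicate 1 the count was 2, since *Ndufab1* then had an adjusted p of 0.0541 by limma.

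Other known targets of SREBP1 or ChREBP gave 1 gene that rose and 2 that fell of 10 tested of 12, and the median log2 fold change was 0.07. This list pools targets of both factors, assigns no gene to either and leaves out genes placed in the other lists. Its median therefore does not describe the targets of SREBP1 or of ChREBP alone. *Gpd1*, the cytosolic glycerol-3-phosphate dehydrogenase that supplies the glycerol backbone, rose from 1413.00 and 1615.64 to 3025.50 and 2572.34 FPKM (log2 fold change 0.88, limma, adjusted p = 0.00224). *Pnpla3*, a lipid droplet protein, fell from 196.09 and 196.30 to 149.54 and 142.45 (-0.42, limma, adjusted p = 0.00259). Without Ctrl replicate 1 *Gpd1* no longer passed (adjusted p of 0.0902 by limma), and 0 genes of this list were higher and 1 was lower. Without cKO replicate 2, 2 genes were higher.

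For each of the 8 genes, the gene outside them with the most similar pattern was taken as that with the smallest root mean square difference of log2(FPKM + 1), centred on its mean over the 4 libraries. *Acacb* was nearest to *Slc16a1*, the monocarboxylate transporter MCT1, with a difference of 0.00369 and FPKM of 50.96 and 54.33 in Ctrl and of 79.48 and 70.95 in cKO. *Srebf1* was nearest to *Gas7* at 0.0156, which had 13.82 and 12.10 in Ctrl and 8.65 and 8.73 in cKO. The nearest genes to *Mlxipl*, *Thrsp* and *Me1* were *Tarsl2*, *Nrip2* and *Setd8*, at 0.00969, 0.00663 and 0.00414. Those to *Fasn*, *Acly* and *Acaca* were *Mpnd*, *Actr1a* and *Pomgnt1*, at 0.00527, 0.00607 and 0.00598. Among the 8 genes themselves *Fasn* and *Acly* were closest, at 0.0168, and *Srebf1* was farthest from its nearest companion, *Thrsp*, at 0.156. With 4 libraries and 12658 genes such closeness is a description only.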

How the data were processed

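Total RNA of ingWAT was poly(A) selected and read as single 50-base reads on a BGISEQ-500. The authors deposited a table of FPKM per gene; their processing notes name mm10, HISAT2 2.0.4 and RSEM 1.2.12. No library scaling is stated, counts were not used here, and 0 per-sample columns were left unused.

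Libraries were grouped by title (2 Ctrl, 2 cKO). Genes whose mean FPKM reached 1 were compared on log2(FPKM + 1), which understates changes of low genes, with limma 3.58.1 in R 4.3.3 (eBayes with a trend, two-sided, Benjamini-Hochberg adjustment). The procedure was run on simulated data with independent noise and far fewer changed genes than were called here. That run checks the code and cannot show that the calls hold. Depth was estimated from the FPKM steps of 299 RNAs of at most 400 bases, of which 83.2% to 89.5% came out as whole reads within 0.1. Ratios, patterns and promoter motifs were computed in Python 3.11.15 (pandas 2.3.3, numpy 2.4.6, matplotlib 3.10.9).

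The 8 genes and all lists were chosen with earlier results of these data known. Of each list, up to 4 genes with the largest change past the threshold were named, plus partners of the 8 genes (*Acss2*, *Me2*, *Me3*, *Mid1ip1*), and others are marked. The values of 1 gene that the rule chose are not reported here. Alternatives changed the pseudocount (0.1), the filter (none, or a mean FPKM of 5), the scaling (median of ratios, or quantiles), the variance trend (none), the replicates (as a block) and the libraries (each left out).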

Additional observations from a re-analysis of the deposited data

How the results depend on the processing

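Without a filter on low values 1762 genes passed (667 higher, 1095 lower) in place of 3269, and 1 gene was higher in each of the lists of carbon supply, NADPH supply and elongation and 1 lower in that of NADPH supply. With a mean FPKM of at least 5, *Mlxipl* passed at 0.27, so that 2 of the 8 genes were higher, and 2 transcriptional regulators were higher and 2 lower. Under quantile normalization *Acly*, *Acaca* and *Fasn* turned to -0.02, -0.00454 and -0.12 and the median of the 8 genes to -0.07, *Thrsp* passed at -0.46, so that 2 of the 8 genes were lower, 3 transcriptional regulators were lower and 2 other targets were higher. Without a variance trend 0 transcriptional regulators were lower, 3 genes of the NADPH list were higher and 1 lower, and 2 other targets were higher. The cause was not tested.

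With the replicate number as a block 3383 genes passed, *Mlxipl* passed at 0.27, so that 2 of the 8 genes were higher, and 2 transcriptional regulators were higher. The block changed no other call of the 8 genes. The numbers were not treated as pairs, since no label ties them and the replicate differences of Ctrl and cKO correlated at r = 0.015 across 12658 genes.

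With each library left out in turn, in fits where the lone library is assumed to vary like the other genotype's, 787 to 2340 genes passed (303 to 1072 higher, 484 to 1379 lower). Of the 8 genes 0 to 2 were higher and 1 lower, with a median of 0.03 to 0.15. *Acacb* was at 0.43 to 0.58 and *Mlxipl* at 0.15 to 0.40. The lists gave, higher and lower, 1 and 0 for transcriptional control, 2 to 4 and 0 to 5 for carbon supply, 1 to 6 and 0 to 2 for NADPH supply, 1 to 2 and 2 to 3 for elongation, 2 to 3 and 0 for mitochondrial synthesis, and 0 to 2 and 1 to 3 for other targets. Over all 11 alternatives, not only the libraries left out, 24 other genes (*Slc22a3*, those of the naming rule and the partners of the 8 genes) gave 262 results. Of these, 34 lost the call and 1 changed sign, that of *Me2* (-0.15 to 0.17 over the libraries left out). Counting error was at most 1.61% for the 8 genes.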
